A study of Anas platyrhynchos with 18 samples.

Results

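The step from 4 weeks of age (4WK) to 10 weeks of age (10WK) was followed in the mature miRNAs of the skin of white Pekin ducks (Anas platyrhynchos), as the last of the successive stages of a small RNA sequencing series. All ducks were of the same breed, were fed commercial diets and have no treatment in the labels, so that age is what the labels give as the difference between the groups. Skin was taken from an area above the thoracic vertebrae. The series covers 6 stages, 11EM, 15EM and 20EM before hatch and 1DB, 4WK and 10WK after it, and 17 of its libraries were used. The comparison holds 3 libraries of 10WK and 3 libraries of 4WK. The labels number the replicates but do not tie them to single birds, so the p-values measure the spread between libraries. In the main test of each miRNA this spread is shared over the 17 libraries of all 6 stages. The sex of the ducks was not given in the labels.

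A miRNA entered the comparison when it reached at least 1 CPM (reads per 1000000 miRNA reads counted in the library) in at least 2 of the 6 libraries. Of 353 miRNAs with a count in any of the 17 libraries, 301 had a count in the 6 libraries and 226 passed this filter. Of the 301, whether they passed or not, 217 had counts in all 6. The 75 miRNAs that did not pass were too scarce to compare. The filter was passed through 10WK libraries alone by 2 miRNAs and through 4WK libraries alone by 3, and these had to differ to be included. The depth was between 3072942 and 5668932 counts at 10WK and between 3512684 and 5500608 counts at 4WK, and 3 counts correspond to between 0.529 and 0.976 CPM in these libraries.

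A miRNA is a short RNA cut from 1 of the 2 arms (5p or 3p) of a hairpin and loaded into an Argonaute protein, where the seed, bases 2 to 8 from the 5′ end, pairs with messenger RNAs and lowers their stability or translation. miRNAs with the same seed can bind the same sites and are counted as a family. Skin is a mixture of keratinocytes, dermal fibroblasts, vessels, nerves, immune cells and, under the dermis, muscle, and many of these cell types carry miRNAs of their own. The feather follicle grows from the epidermis around a dermal papilla, and in ducks the feathers change after about 4 weeks of age and are mature at 10 weeks.

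The sequences below are the chicken mature sequences of miRBase to which the authors matched the duck reads, written 5′ to 3′ with the seed in capitals, as given in the annotation of the study. All 226 miRNAs had such a sequence. The first 6 are both arms of the hairpins with a differentially expressed (DE) arm and show that the arms of a hairpin carry unrelated seeds, and the seventh is the abundant near copy of miR-30e-5p.
miR-9-3p: uAAAGCUAgagaaccgaaugu
miR-9-5p: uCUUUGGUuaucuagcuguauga
miR-30e-5p: uGUAAACAuccuugacugg
miR-30e-3p: uUUCAGUCggauguuuacagc
miR-142-3p: uGUAGUGUuuccuacuuuaugg
miR-142-5p: cCCAUAAAguagaaagcacuac
miR-30a-5p: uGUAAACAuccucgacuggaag
The next set holds the other miRNAs that passed the adjusted p, and miR-29a-3p and miR-29c-3p.
miR-99a-3p: cAAGCUCGcuucuaugggucu
miR-21-5p: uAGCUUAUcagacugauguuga
miR-18a-5p: uAAGGUGCaucuagugcagaua
miR-18b-5p: uAAGGUGCaucuagugcaguua
miR-146b-5p: uGAGAACUgaauuccauaggcg
miR-29a-3p: uAGCACCAuuugaaaucgguu
miR-29c-3p: uAGCACCAuuugaaaucggu
The last set holds the most abundant miRNAs of both stages.
miR-10a-5p: uACCCUGUagauccgaauuugu
miR-10b-5p: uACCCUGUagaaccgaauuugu
miR-22-3p: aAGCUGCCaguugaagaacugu
miR-26a-5p: uUCAAGUAauccaggauaggc
miR-27b-3p: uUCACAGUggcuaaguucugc
Some of these differ by few bases, and the number of mismatches allowed in matching reads to them is not given in the sources used here. Counted from 1 at the 5′ end of the first named, miR-30a-5p and miR-30e-5p differ by C13U, miR-10a-5p and miR-10b-5p by U12A and miR-18a-5p and miR-18b-5p by A20U. The listed miR-29c-3p, of 20 bases, is contained in miR-29a-3p, of 21 bases.

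The level of miR-2954 set the libraries apart. It is known from chicken and zebra finch as a miRNA of the Z chromosome with higher levels in males; it was chosen after its values were seen. Over all 17 libraries it fell into a lower range, 413 to 738 CPM in 9 libraries, and a higher range, 3334 to 4124 CPM in 8 libraries, with none between. It had 413, 504 and 458 CPM in the 10WK libraries, against 3369, 3934 and 623 CPM in the 4WK libraries. All 3 libraries of 10WK and replicate 3 of 4WK were in the lower range, while replicates 1 and 2 of 4WK were in the higher range. Its own change did not pass the test (log2 fold change -2.37 ± 0.79 (SE), adjusted p = 0.0945; edgeR quasi-likelihood test with Benjamini-Hochberg adjustment). Replicate 3 of 4WK was also nearer to the 10WK libraries over all miRNAs: across the 169 miRNAs with a mean of at least 10 CPM, the median absolute log2 difference between this library and those of 10WK was between 0.27 and 0.33, against 0.30 to 0.43 for the other two of 4WK. Because of this, the DE miRNAs are also given from a fit that takes the log2 CPM of miR-2954 in each library as a covariate, which was added after seeing the data. What part the difference behind miR-2954 has in the results was not tested otherwise.

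The mature profile of the skin was largely the same at 10WK and 4WK. The 20 most abundant miRNAs held 86.2% ± 0.0914 of all counts at 10WK and 84.9% ± 0.538 at 4WK (SD, n = 3 each). The shares did not overlap (86.1% to 86.3% at 10WK, 84.5% to 85.5% at 4WK), and the exact permutation test, two-sided, gave p = 0.1, the smallest p that 3 libraries against 3 can give. Of the top 20 of each stage, 19 were shared; miR-133a-3p was in the list of 10WK only and miR-140-3p in that of 4WK only. Of the 226 miRNAs, 24 are listed on several hairpin lines, which were summed; 15 of these had at least 100 counts on every line, and in 14 of the 15 the lines were within 10% of each other in every library. The same reads may thus stand on each line, which was not tested, and the CPM of these miRNAs (among those named, let-7a-5p, miR-181a-5p, miR-133a-3p, miR-199-3p, miR-16-5p, miR-196-5p, miR-204, miR-29b-3p and miR-9-5p) depend on the summing. With the highest line in place of the sum, the share of the top 20 was 88.4% at 10WK and 87.2% at 4WK. By the sum, 20 of the 226 had a mean over 10000 CPM, 60 over 1000 CPM and 110 over 100 CPM.

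**Figure D1:**
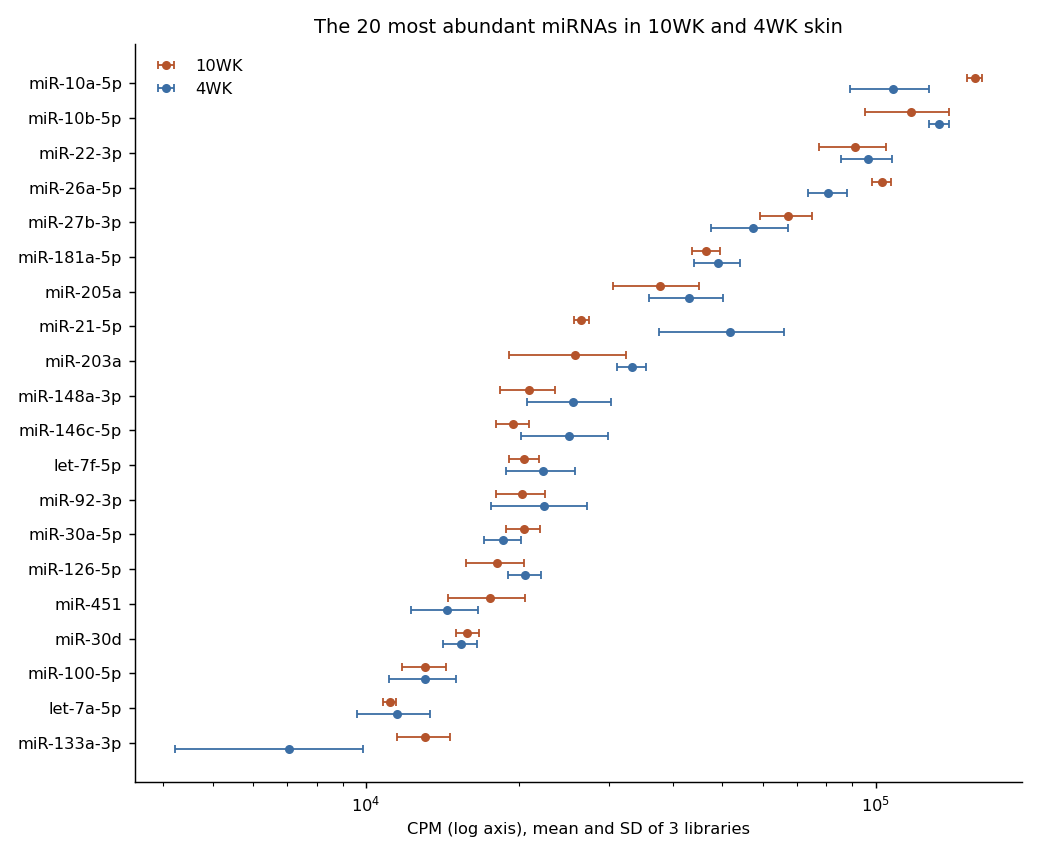
Levels of the 20 most abundant miRNAs (CPM, log axis), with the mean and SD of 3 libraries of 10WK (upper point of each row) and of 4WK (lower point). Most pairs lie close together; miR-10a-5p and miR-133a-3p lie to the right at 10WK and miR-21-5p to the left.

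The miR-10 family was the most abundant. miR-10a-5p and miR-10b-5p are encoded within the Hox clusters, which set position along the body axis. miR-10a-5p had 153366, 162651 and 153337 CPM in the 10WK libraries, against 106739, 90046 and 128250.0 CPM in the 4WK libraries. The 10WK libraries were all above those of 4WK, but the change did not pass the test (log2 fold change 0.67 ± 0.32 (SE), adjusted p = 0.243; edgeR). miR-10b-5p had 92523, 134679 and 124716 CPM in the 10WK libraries, against 126447, 135263 and 138326 CPM in the 4WK libraries, and the ranges overlapped (log2 fold change -0.04 ± 0.18 (SE), adjusted p = 0.905; edgeR). The count of miR-10a-5p was between 121% and 166% of that of miR-10b-5p at 10WK and between 66.6% and 92.7% at 4WK, so that miR-10a-5p led in every 10WK library and miR-10b-5p in every 4WK library. As the sequences above differ by a single base, the order also rests on how the reads were assigned, which was not tested. Together their seed held 27.4% ± 2.60 of the counts at 10WK and 24.2% ± 2.19 at 4WK (SD, n = 3 each), with overlapping libraries.

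The next most abundant miRNAs had intervals within 2-fold. miR-22-3p had 106134, 79103 and 88714 CPM in the 10WK libraries, against 83766, 101802 and 103964 CPM in the 4WK libraries, with a log2 fold change of 0.06 and a 95% interval of -0.25 to 0.38. miR-27b-3p, from a cluster with miR-23b and miR-24, had 76396, 62698 and 62759 CPM in the 10WK libraries, against 67934, 55851 and 48422 CPM in the 4WK libraries (log2 fold change 0.37, interval -0.0019 to 0.75). miR-181a-5p had a log2 fold change of 0.06 with an interval of -0.19 to 0.31. miR-26a-5p, a miRNA of many differentiated tissues, had 107463, 98778 and 102246 CPM in the 10WK libraries, against 86731, 73037 and 82570.5 CPM in the 4WK libraries, and here the 10WK libraries were all higher (log2 fold change 0.49 ± 0.14 (SE), adjusted p = 0.0739; edgeR), a change that did not pass.

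Epidermal, vascular and blood miRNAs stand further down the top 20. miR-205a, an epithelial miRNA, had 35416, 31928 and 45927 CPM in the 10WK libraries, against 37906, 51166 and 40146 CPM in the 4WK libraries, and its interval was -0.67 to 0.60 on the log2 scale. miR-203a, which is known from mouse skin to rise as keratinocytes leave the basal layer, had 22482, 33416 and 21334 CPM in the 10WK libraries, against 35293, 30935 and 33382 CPM in the 4WK libraries; the ranges overlapped and the interval, -1.01 to 0.54, reached just past 2-fold. miR-126-5p of the endothelium had an interval of -0.37 to 0.28, and miR-451 of red blood cells one of -0.29 to 1.13. miR-133a-3p, a muscle miRNA, had 14165, 11290.2 and 13757 CPM in the 10WK libraries, against 6129.8, 4796 and 10218 CPM in the 4WK libraries. It was higher in every 10WK library and its log2 fold change was 1.03 ± 0.58 (SE), but it did not pass (adjusted p = 0.335, edgeR). It was not among the 3 DE miRNAs of a fit of the 6 libraries alone either. Of the 20, 15 had an interval within 2-fold, 12 had a positive and 8 a negative log2 fold change, and 1, miR-21-5p, passed the adjusted p.

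By seed, 172 families were present, of which 29 had at least 2 miRNAs. The 10 most abundant families held 77.0% of the counts at 10WK and 75.3% at 4WK. The let-7 seed, GAGGUAG, was shared by 8 miRNAs and held 5.13% ± 0.157 at 10WK and 5.45% ± 0.803 at 4WK. The miR-30 seed, GUAAACA, shared by 5 miRNAs, held 4.40% ± 0.114 at 10WK and 4.08% ± 0.254 at 4WK, and the miR-181 seed, ACAUUCA, held 4.98% ± 0.319 at 10WK and 5.31% ± 0.614 at 4WK (SD, n = 3 each). Within the let-7 seed, let-7a-5p and let-7j-5p have the same listed sequence, so the same reads may be counted for both, which was not tested. The let-7, miR-30 and miR-181 families overlapped between the stages. Among the 10 most abundant, UCAAGUA of miR-26a-5p was higher in every 10WK library. AGCUUAU of miR-21-5p (2.65% ± 0.0917 at 10WK, 5.19% ± 1.43 at 4WK) was lower in every 10WK library, and the rest of the 10 overlapped. The next in rank, GAGAACU of the miR-146 family, was also lower in every 10WK library (2.14% ± 0.144 at 10WK, 2.90% ± 0.537 at 4WK). These are shares of library totals. On that scale 7.96% of the 226 miRNAs were higher and 19.9% lower in every 10WK library.

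The major arm was mostly the same at both stages. Both arms passed the filter for 85 pairs of a 5p and a 3p miRNA that share a hairpin. Of these, 50 had more 5p and 33 more 3p in every library of both stages and 2 were mixed, with the lines of a miRNA summed. A miRNA listed on several hairpins can enter several pairs, as let-7a-5p does, so the pairs are not all separate measurements. With the highest line in place of the sum the numbers were 49, 33 and 3; the hairpin of miR-9 was then mixed. Among the 48 pairs with both arms at a mean of at least 10 CPM, the log2 ratio of 5p to 3p (with 0.5 counts added) differed between the stages by a median of 0.19, and by more than 1 for 1 pair, that of miR-9. The next largest differences were those of miR-146b (-0.86), miR-221 (-0.84) and miR-30e (0.82).

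How far a level can be called stable depended on its abundance. A 95% interval of the log2 fold change inside -1 to 1, that is within 2-fold, was found for 110 of the 226 miRNAs (48.7%). It was found for 48 of the 60 miRNAs over 1000 CPM (80%), for 56 of 109 between 10 and 1000 CPM (51.4%) and for 6 of 57 under 10 CPM (10.5%), where the depth leaves the interval wide. The median absolute log2 fold change was 0.25, 0.34 and 0.49 in these 3 classes. Between libraries, the median absolute log2 difference across the 169 miRNAs with at least 10 CPM was 0.18 to 0.25 within 10WK, 0.25 to 0.29 within 4WK and 0.27 to 0.43 between the stages. The medians of these were 0.20 within 10WK, 0.27 within 4WK and 0.35 between the stages. Replicate 3 of 4WK did not follow this order. Its Spearman correlation over the same miRNAs was 0.989, 0.985 and 0.987 with 10WK replicates 1 to 3. With replicates 1 and 2 of its own stage it was lower, 0.976 and 0.981. Its median absolute log2 difference was 0.27, 0.29 and 0.33 from the 10WK libraries and 0.29 and 0.25 from those of 4WK.

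**Figure D2:**
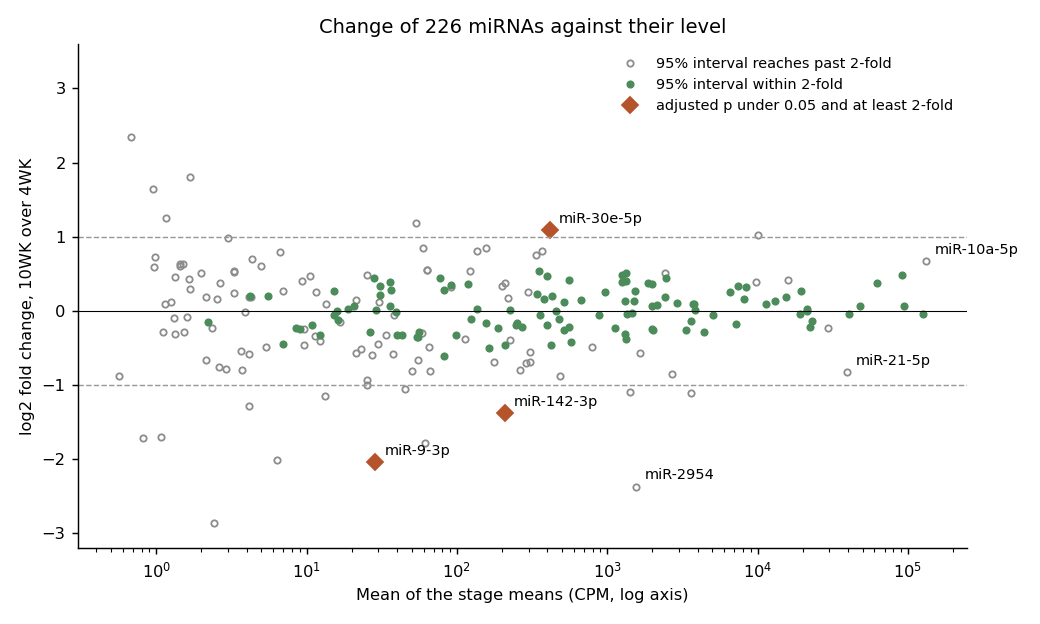
Log2 fold change of 10WK over 4WK against the mean level (CPM, log axis) for the 226 miRNAs. Filled green points have a 95% interval within 2-fold (110 miRNAs), diamonds are the 3 DE miRNAs, open points are the rest and dashed lines mark 2-fold; the spread widens below 10 CPM.

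Between the stages 3 miRNAs were DE, miR-30e-5p with a higher and miR-9-3p and miR-142-3p with a lower level at 10WK. DE means an adjusted p under 0.05 (edgeR quasi-likelihood test with Benjamini-Hochberg adjustment over the 226 miRNAs) and a fold change of at least 2. These 3 are 1.33% of the miRNAs tested; 1 (0.442%) was higher and 2 (0.885%) lower at 10WK. On the same 226 miRNAs, the same fit called 66 (29.2%) for 15EM over 11EM, 30 (13.3%) for 20EM over 15EM, 72 (31.9%) for 1DB over 20EM and 51 (22.6%) for 4WK over 1DB. These steps share libraries with each other. The median absolute log2 fold change was 0.34 for 10WK over 4WK, against 0.55 for 4WK over 1DB and 0.77 for 1DB over 20EM. Without a fold change limit, 8 miRNAs (3.54%) passed the adjusted p, 2 higher (0.885%) and 6 lower (2.65%), and 46 (20.4%) had an unadjusted p under 0.05. With the fold limit, 12 (5.31%) had an unadjusted p under 0.05 and 9 (3.98%) one under 0.01. Among the 12 is miR-107-5p, which passed the filter through the 4WK libraries alone. Its lower level at 10WK was thus partly set by the filter. The number of DE miRNAs depended on the settings: DESeq2 called 11, scaling by library totals 5, and the fit with miR-2954 as a covariate 1, miR-9-3p. In the read statistics of the study 4WK replicate 1 had a higher percent of clean reads than the other 5 libraries. Without it 4 miRNAs were DE, with all 3 among them. The number was 8 without 4WK replicate 3, 11 without 10WK replicate 1 and 17 without 10WK replicate 2, but without each of the other 3 libraries it was between 2 and 4. With the normalization factors of all libraries kept, it was 9 without 4WK replicate 3 (4 higher and 5 lower at 10WK), 2 to 4 without replicate 1 or 2 of 4WK, and 2 without any 1 of the 10WK libraries. With the highest hairpin line of each miRNA in place of the sum it was 5: the same 3, miR-29a-3p and miR-142-5p.

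**Figure D3:**
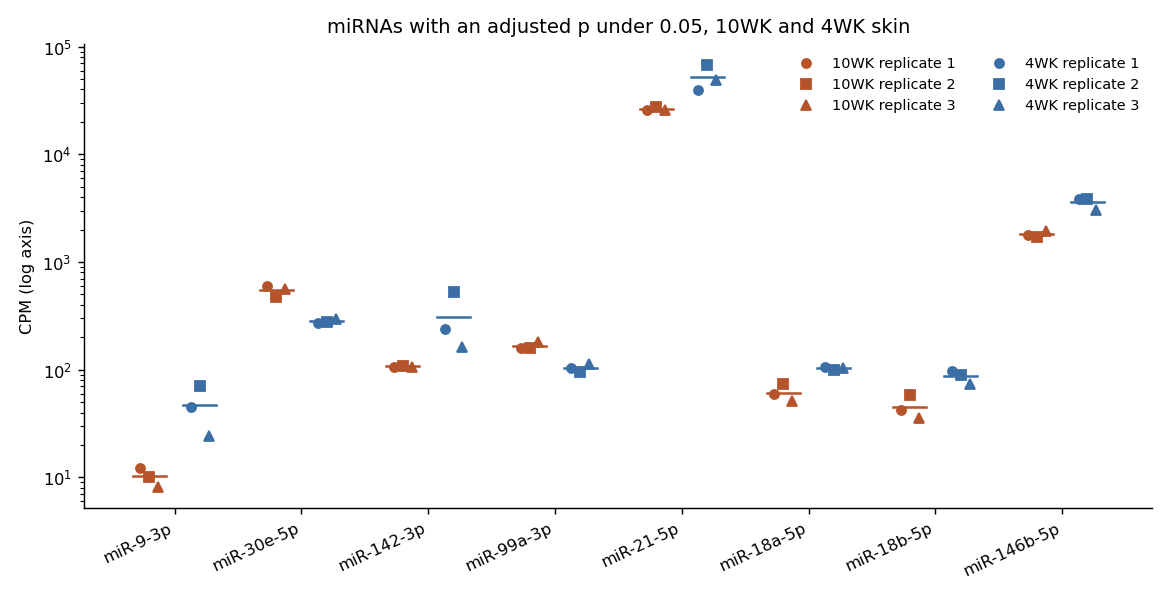
CPM (log axis) of the 8 miRNAs with an adjusted p under 0.05, with 10WK left of 4WK for each miRNA. Each marker is a library (circle, square and triangle for replicates 1 to 3) and bars are means of 3 libraries. The stages do not overlap for any of the 8, which were picked by their test in these same libraries. Of all 226 miRNAs, 63 (27.9%) did not overlap. Replicate 3 of 4WK is the lowest of its stage for miR-9-3p, miR-142-3p, miR-18b-5p and miR-146b-5p. For the others shown, replicate 1 or 2 is the lowest.

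miR-9-3p had the largest change of the 3. miR-9 is best known from the vertebrate nervous system, where it acts in neural progenitors. miR-9-3p had 12.3, 10.2 and 8.14 CPM in the 10WK libraries, against 45.5, 71.3 and 24.5 CPM in the 4WK libraries. The stages did not overlap, and the change passed the test (log2 fold change -2.04 ± 0.31 (SE), adjusted p = 0.00265; edgeR). It was based on 25 to 70 counts per library at 10WK and 86 to 392 at 4WK. Replicate 3 of 4WK, the library with the low miR-2954, was the closest to 10WK. With miR-2954 as a covariate the log2 fold change was -1.48 and still passed (adjusted p = 0.0272, edgeR). Over 22 alternatives it was between -2.54 and -1.48, with an adjusted p under 0.05 in all 22.

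The 5p arm of the same hairpin did not pass the test. miR-9-5p, which is also cut from another hairpin, had 43.4, 63.0 and 36.8 CPM in the 10WK libraries, against 55.2, 82.4 and 54.1 CPM in the 4WK libraries, with overlapping ranges (log2 fold change -0.28 ± 0.21 (SE), adjusted p = 0.468; edgeR) and an interval of -0.74 to 0.17. The count of miR-9-3p was 28.5%, 16.2% and 22.1% of that of miR-9-5p at 10WK, against 82.4%, 86.5% and 45.3% at 4WK. The 5p count is the sum over both hairpins, which held nearly equal counts. On the line of the hairpin that carries miR-9-3p, its count was 56%, 31.5% and 43.9% of that of miR-9-5p at 10WK, against 165%, 174% and 92.5% at 4WK. The 3p arm was thus lower relative to 5p in every 10WK library in either counting, but which arm led in replicates 1 and 2 of 4WK depended on it. With the sum, the difference of the log2 ratio of 5p to 3p was 1.65 (2.19 ± 0.40 at 10WK and 0.54 ± 0.52 at 4WK, SD, n = 3 each). miR-124a-3p, miR-124b and miR-124c-3p, other miRNAs of neurons, had at most 4 counts in a library and were not tested. The nerve list of 5 miRNAs thus had 2 tested members, miR-9-5p with a negative and miR-138-5p with a positive log2 fold change. miR-138-5p was scarce, with 3 to 10 counts per library, and did not pass (log2 fold change 0.60 ± 0.52 (SE), edgeR adjusted p = 0.504).

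miR-30e-5p was the DE miRNA with a higher level. It belongs to the miR-30 family, which is abundant in many differentiated tissues. It had 597, 474 and 566 CPM in the 10WK libraries, against 272, 279 and 298 CPM in the 4WK libraries. The 10WK libraries all stood above those of 4WK, and within 4WK the libraries were close together (log2 fold change 1.09 ± 0.18 (SE), adjusted p = 0.00287; edgeR). The other arm, miR-30e-3p, had 1386, 1589.9 and 1846 CPM in the 10WK libraries, against 1298, 1560.4 and 1560.1 CPM in the 4WK libraries and a 95% interval of -0.11 to 0.66. The log2 ratio of 5p to 3p was -1.56 ± 0.30 at 10WK and -2.38 ± 0.11 at 4WK (SD, n = 3 each). Its near copy miR-30a-5p had 19618, 22241 and 19382 CPM in the 10WK libraries, against 18958, 16879.6 and 19979.6 CPM in the 4WK libraries (log2 fold change 0.27 ± 0.15 (SE), adjusted p = 0.335; edgeR). The count of miR-30e-5p was 3.04%, 2.13% and 2.92% of that of miR-30a-5p at 10WK and 1.43%, 1.65% and 1.49% at 4WK, so the assignment of reads between the near copies bears on its level; this was not tested. Its fold change was just past 2-fold: by library totals the log2 fold change was 0.95 (adjusted p = 0.0121), with miR-2954 as a covariate 0.90 (adjusted p = 0.0272), without 10WK replicate 1 it was 0.71 (adjusted p = 0.0521) and without 10WK replicate 2 it was 0.87 (adjusted p = 0.0168, edgeR each). In these last fits the normalization factors also moved, and with the factors of all libraries kept the log2 fold change was 1.03 (adjusted p = 0.0238) without the first and 1.21 (adjusted p = 0.00531, edgeR each) without the other of these libraries.

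miR-142-3p was the other DE miRNA with a lower level. miR-142 is made in cells of the blood lineage. miR-142-3p had 105.8, 109 and 107 CPM in the 10WK libraries, against 240.3, 529 and 163 CPM in the 4WK libraries. The 10WK libraries were nearly equal while those of 4WK were scattered, with replicate 2 the highest and replicate 3 the lowest (log2 fold change -1.38 ± 0.30 (SE), adjusted p = 0.017; edgeR). Without 4WK replicate 2 the log2 fold change was -0.79 (adjusted p = 0.0675), without 10WK replicate 3 it was -1.40 (adjusted p = 0.0527), with the 6 libraries alone -1.38 (adjusted p = 0.0974) and with miR-2954 as a covariate -0.86 (adjusted p = 0.205, edgeR each). With the normalization factors of all libraries kept, it also missed the threshold without 10WK replicate 1 (adjusted p = 0.0933) and without 10WK replicate 2 (adjusted p = 0.0566, edgeR each). miR-142-5p, the more abundant arm, had 2053, 1565 and 2711 CPM in the 10WK libraries, against 4049, 8319 and 2875 CPM in the 4WK libraries. It was also lower in every 10WK library but did not pass (log2 fold change -1.10 ± 0.31 (SE), adjusted p = 0.0717; edgeR). The count of miR-142-3p was 3.94% to 6.99% of that of miR-142-5p at 10WK and 5.68% to 6.36% at 4WK, and these ranges overlapped.

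Of the leukocyte list (miR-142-3p, miR-142-5p, miR-155, miR-223, miR-146a-5p and miR-146b-5p), 5 of 6 members were tested and all 5 had a negative log2 fold change, with a median of -0.85 against 0.01 over all 226 miRNAs, of which 113 were negative; 1 was DE and 2 passed the adjusted p, while 1.33% of all miRNAs tested were DE and 3.54% passed the adjusted p. miR-155 had at most 1 count in a library. The summed level of the list was 3772 to 5239 CPM at 10WK and 6518 to 13681 CPM at 4WK, without overlap. miR-223, of granulocytes, had 205.2, 210.4 and 286 CPM in the 10WK libraries, against 437, 459.6 and 248 CPM in the 4WK libraries, and here replicate 3 of 4WK lay within the range of 10WK (log2 fold change -0.55 ± 0.26 (SE), adjusted p = 0.237; edgeR). miR-146a-5p had 153.5, 172 and 209.6 CPM in the 10WK libraries, against 335, 515 and 188 CPM in the 4WK libraries, again with replicate 3 of 4WK within the range of 10WK (log2 fold change -0.80 ± 0.54 (SE), adjusted p = 0.425; edgeR). In whole skin, fewer leukocytes and less of these miRNAs per leukocyte cannot be told apart. All 10WK libraries and replicate 3 of 4WK were in the lower range of miR-2954. Age and the difference behind miR-2954 can thus not be fully told apart either. With miR-2954 as a covariate neither miR-142-3p nor miR-146b-5p passed the adjusted p.

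miR-146b-5p and miR-21-5p were lower at 10WK, with estimates of less than 2-fold. Their 95% intervals on the log2 scale, -1.31 to -0.38 for miR-146b-5p and -1.20 to -0.45 for miR-21-5p, reached past 2-fold. miR-146 is induced by NF-kB and dampens its signalling in mammals, and miR-21 rises in wounded and inflamed tissue. miR-146b-5p had 1772, 1715 and 1925 CPM in the 10WK libraries, against 3864, 3858 and 3044 CPM in the 4WK libraries (log2 fold change -0.85 ± 0.22 (SE), adjusted p = 0.0434; edgeR). miR-146c-5p, which has the same seed and was more abundant, had 21125, 18400.5 and 18821 CPM in the 10WK libraries, against 29989, 24852 and 20216 CPM in the 4WK libraries and a 95% interval of -0.71 to 0.28. Between them, the count of miR-146b-5p was 8.39% to 10.2% of that of miR-146c-5p at 10WK and 12.9% to 15.5% at 4WK. miR-21-5p had 25816, 27518 and 26075 CPM in the 10WK libraries, against 39385, 67414 and 48828 CPM in the 4WK libraries. It had the highest level of the 8 miRNAs that passed, and its 10WK libraries were tight and all below those of 4WK (log2 fold change -0.82 ± 0.17 (SE), adjusted p = 0.0169; edgeR). Its other arm, miR-21-3p, named after its values were seen, had 221, 203.8 and 231 CPM in the 10WK libraries, against 266, 504 and 401 CPM in the 4WK libraries, also without overlap (log2 fold change -0.69 ± 0.22 (SE), adjusted p = 0.0945; edgeR). With miR-2954 as a covariate miR-146b-5p had a log2 fold change of -0.57 (adjusted p = 0.294) and miR-21-5p of -0.80 (adjusted p = 0.0947, edgeR each). With the 6 libraries alone the adjusted p of miR-21-5p was 0.0698 (edgeR). Without 10WK replicate 1 or 2 both miR-146b-5p and miR-21-5p were DE, in fits where the normalization factors also moved. Without 4WK replicate 2 neither passed (adjusted p = 0.13 for miR-146b-5p and 0.0823 for miR-21-5p), nor without 10WK replicate 3 (0.0798 for miR-146b-5p and 0.0527 for miR-21-5p), and miR-146b-5p did not pass without 4WK replicate 1 (0.0891) or 4WK replicate 3 (0.0608, edgeR each).

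The pair miR-18a-5p and miR-18b-5p fell as well. Both belong to the clusters of miR-17 and its relatives, which act in proliferating cells. miR-18a-5p had 58.9, 74.2 and 50.8 CPM in the 10WK libraries, against 107, 98.7 and 103 CPM in the 4WK libraries (log2 fold change -0.61 ± 0.15 (SE), adjusted p = 0.0377; edgeR). miR-18b-5p had 42.0, 57.8 and 35.8 CPM in the 10WK libraries, against 97.6, 89.4 and 73.2 CPM in the 4WK libraries (log2 fold change -0.80 ± 0.20 (SE), adjusted p = 0.0402; edgeR). Both were lower in every 10WK library, and as they differ by a single base they may not be separate measurements. Without 10WK replicate 3 neither passed, with log2 fold changes of -0.52 for miR-18a-5p (adjusted p = 0.123) and -0.69 for miR-18b-5p (adjusted p = 0.134, edgeR each). With miR-2954 as a covariate the log2 fold changes were -0.64 for miR-18a-5p (adjusted p = 0.123) and -0.70 for miR-18b-5p (adjusted p = 0.155, edgeR each), and with the 6 libraries alone -0.61 for miR-18a-5p (adjusted p = 0.102) and -0.80 for miR-18b-5p (adjusted p = 0.0952, edgeR each). They also missed the threshold without 4WK replicate 1 (0.0733 for miR-18a-5p and 0.0891 for miR-18b-5p) and without 4WK replicate 2 (0.0675 for miR-18a-5p and 0.104 for miR-18b-5p), and miR-18a-5p without 4WK replicate 3 (0.0741, edgeR adjusted p each).

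Of the cell cycle list, the miR-17 and miR-15 clusters, 15 of 16 members were tested. Of these, 12 had a negative and 3 a positive log2 fold change with a median of -0.23, against 113 negative of all 226. An interval within 2-fold was found for 14 of them. The share was 48.7% of all miRNAs tested, 80% of those over 1000 CPM and 51.4% of those between 10 and 1000 CPM. The 2 miR-18 miRNAs above were the only ones of the list past the adjusted p, which 3.54% of all miRNAs tested passed. miR-92-3p, its most abundant member, had 19870.2, 22632 and 18181 CPM in the 10WK libraries, against 25355, 24930.3 and 16879.7 CPM in the 4WK libraries and an interval of -0.53 to 0.52, and miR-16-5p, with a mean of 2870.3 ± 282 CPM at 10WK and 3788 ± 454.8 CPM at 4WK (SD, n = 3 each), had one of -0.56 to 0.06.

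miR-99a-3p rose by less than 2-fold. It is the lesser arm of a hairpin of the miR-99 and miR-100 family. miR-99a-3p had 160.0, 158 and 179.6 CPM in the 10WK libraries, against 105, 96.2 and 113 CPM in the 4WK libraries, with no overlap and a small spread in both stages (log2 fold change 0.81 ± 0.16 (SE), adjusted p = 0.0126; edgeR). With miR-2954 as a covariate the log2 fold change was 0.80 (adjusted p = 0.0947), and without 4WK replicate 2 it was 0.73 (adjusted p = 0.0675, edgeR each). Without 10WK replicates 1, 2 or 3 the adjusted p was 0.0914, 0.0592 and 0.0527 (edgeR). miR-100-5p, the most abundant member of the family, had 11617, 14031 and 13519 CPM in the 10WK libraries, against 13477, 10924 and 14806 CPM in the 4WK libraries and an interval of -0.26 to 0.53.

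Close behind the threshold stood miR-29a-3p of the miR-29 family. miR-29 is known in mammals to target collagens and other matrix messenger RNAs. miR-29a-3p had 545, 554 and 501 CPM in the 10WK libraries, against 262, 282 and 268 CPM in the 4WK libraries. The stages were far apart beside the spread within each of them, but the fit over all stages did not pass it (log2 fold change 1.12 ± 0.32 (SE), adjusted p = 0.0717; edgeR). With the highest hairpin line in place of the sum it passed, with a log2 fold change of 1.07 (adjusted p = 0.0449, edgeR), as did miR-142-5p, miR-1662 and miR-21-3p. In a fit of the 6 libraries alone it passed, with the same log2 fold change of 1.12 (adjusted p = 0.00475, edgeR). miR-29c-3p, whose listed sequence lies within that of miR-29a-3p, had 201, 206.2 and 178 CPM in the 10WK libraries, against 114, 115 and 128 CPM in the 4WK libraries. miR-29b-3p had 59.1, 76.6 and 84.9 CPM in the 10WK libraries, against 27.3, 51.1 and 57.5 CPM in the 4WK libraries. Both were named after their values were seen, and neither passed (adjusted p = 0.117 and 0.237, edgeR). All 3 were higher in every 10WK library, which held for 18 (7.96%) of all 226 miRNAs. As the listed miR-29c-3p lies within miR-29a-3p, these may not be separate measurements. miR-1662 had 30.9, 39.98 and 32.2 CPM in the 10WK libraries, against 75.0, 71.1 and 53.5 CPM in the 4WK libraries (log2 fold change -0.81 ± 0.24 (SE), adjusted p = 0.0739; edgeR). miR-2131-3p, listed in chicken, had 15.3, 15.7 and 15.9 CPM in the 10WK libraries, against 39.6, 34.0 and 29.9 CPM in the 4WK libraries, lower in every 10WK library (log2 fold change -0.998 ± 0.30 (SE), adjusted p = 0.0739; edgeR). miR-196-1-3p was near the filter, with 1.59, 1.83 and 1.30 CPM in the 10WK libraries, against 0.808, 0.545 and 0.854 CPM in the 4WK libraries from 3 to 9 counts per library. It passed the filter through the 10WK libraries alone, so that its higher level there was needed for its inclusion and no test is given.

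The stages did not overlap for 63 of the 226 miRNAs (27.9%), 18 with every 10WK library above (7.96%) and 45 with every 10WK library below (19.9%). These counts are on the scale of library totals. The 18 include miR-196-1-3p, which had to be high at 10WK to be included. The TMM scaling of the fit places the median log2 fold change of all miRNAs at 0.01, with 113 positive and 113 negative, while library totals alone place it at -0.14, with 88 positive, so that the share of lower miRNAs depends on the scaling. A fold change of at least 2 in the fit, whatever its p, was found for 21 miRNAs (9.29%), 8 higher (3.54%) and 13 lower (5.75%) at 10WK. The higher ones include miR-196-1-3p, which passed the filter through the 10WK libraries alone. The lower ones include miR-107-5p, which passed it through the 4WK libraries alone. miR-3528 and miR-184-5p, with lower means at 10WK, also passed it through the 4WK libraries alone. The number of 21 was thus partly set by the filter. The most extreme of the 21 were scarce. miR-34c-5p, of 0 to 6 counts at 10WK and 8 to 39 at 4WK, had adjusted p = 0.201 (edgeR), and miR-30b-3p, of 1 to 7 counts at 10WK and 0 to 3 at 4WK, passed the filter through the 10WK libraries alone, so that its place among the higher ones was partly set by the filter.

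In the epidermis and follicle list 0 of 14 miRNAs passed the adjusted p, which 3.54% of all miRNAs tested passed. An interval within 2-fold was found for 6 of the 14, against 48.7% of all miRNAs tested. All 14 members were tested, with 6 positive and 8 negative log2 fold changes and a median of -0.09. Their summed level was 140255 to 145630 CPM at 10WK and 136089 to 154004 CPM at 4WK, with overlap. Among them miR-31-5p, which acts in hair follicle growth in mouse, had 3585, 4121 and 3510.0 CPM in the 10WK libraries, against 3958, 4302 and 3353 CPM in the 4WK libraries and an interval of -0.50 to 0.69. miR-184-3p, named after its values were seen, had 748, 642 and 1137 CPM in the 10WK libraries, against 872, 2790.1 and 2342 CPM in the 4WK libraries, with replicate 1 of 4WK within the range of 10WK (log2 fold change -1.09 ± 0.51 (SE), adjusted p = 0.237; edgeR). The 3 keratinocyte miRNAs (miR-203a, miR-205a and miR-200b-3p) are also in that list and check the labelled tissue. On the scale of library totals they summed to 58473 to 67930 CPM at 10WK and 74141 to 83080 CPM at 4WK. In the fit all 3 had a negative log2 fold change, -0.23 for miR-203a, -0.04 for miR-205a and -0.49 for miR-200b-3p, and none passed. miR-122-5p of the liver had 0 to 12 counts per library. In the epidermis and follicle list, miR-205b, named after its values were seen, had 40 counts in replicate 1 of 4WK. It had 1778 and 870 counts in replicates 2 and 3 of 4WK and 714 to 1233 counts at 10WK. Why it was low in this library was not tested.

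The let-7 main strands, which rise with differentiation in many animals, differed little between the stages. Of 9 members, 8 were tested, and all 8 had an interval within 2-fold, against 48.7% of all miRNAs tested and 80% of those over 1000 CPM. Their median log2 fold change was 0.09, with 7 positive and 1 negative. By library totals the median was -0.05, with 2 positive and 6 negative. As let-7a-5p and let-7j-5p have the same listed sequence, they may not be separate measurements. let-7f-5p had 21509.7, 18899 and 20985 CPM in the 10WK libraries, against 25984, 21682 and 19116 CPM in the 4WK libraries and an interval of -0.27 to 0.31. let-7a-5p had 11366, 11296 and 10739 CPM in the 10WK libraries, against 13577, 10028 and 10844 CPM in the 4WK libraries and an interval of -0.19 to 0.38. Of 6 tested Hox-cluster miRNAs 5 had a positive log2 fold change with a median of 0.34, among them miR-196-1-3p, which had to be high at 10WK to be included, but by library totals 3 were positive and 3 negative. miR-196-5p, which lies between Hox genes, had a mean of 669 ± 87.7 CPM at 10WK and 669 ± 96.9 CPM at 4WK (SD, n = 3 each).

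Of the mesenchyme and matrix list, 9 of 11 were tested, with 7 positive, 2 negative and a median of 0.26. By library totals 6 were positive and 3 negative, with a median of 0.11. The positive ones include miR-29a-3p, miR-29b-3p and miR-29c-3p, which may not be separate measurements. Only miR-21-5p of this list was past the adjusted p, which 3.54% of all miRNAs tested passed. miR-199b, named after its values were seen, had 3 counts in replicate 1 of 4WK. It had 49 and 37 counts in replicates 2 and 3 of 4WK and 15 to 50 counts at 10WK. miR-199-3p, of mesenchymal cells, had 9419, 7208 and 7951 CPM in the 10WK libraries, against 8146, 8001 and 8066 CPM in the 4WK libraries and an interval of -0.15 to 0.48, and miR-214 one of -0.02 to 0.53. Of 8 miRNAs of the miR-181, miR-26a and miR-30 families 7 were positive, with a median of 0.26. By library totals 6 were positive and 2 negative, with a median of 0.12. An interval within 2-fold was found for 7 of the 8, and miR-30e-5p had the wider one. The share was 48.7% of all miRNAs tested and 80% of those over 1000 CPM, a class that holds all of the 8 but miR-30b-5p and miR-30e-5p.

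Markers of other tissues also differed between the libraries. The muscle list had 6 of 8 members tested, all 6 with a positive log2 fold change, against 113 of all 226. Their median was 0.68, and none passed the adjusted p, which 3.54% of all miRNAs tested passed. As miR-133a-3p, miR-133b and miR-133c-3p differ by 1 base, and miR-1a-3p and miR-1b-3p as well, the 6 may not be separate measurements. The summed level of the list was 12206 to 15077 CPM at 10WK and 5233 to 11217 CPM at 4WK, without overlap, and most of it was miR-133a-3p. miR-206, the miRNA of skeletal muscle, had at most 4 counts. Replicate 3 of 4WK had the highest sum of its stage. miR-1b-3p had 71.4, 74.2 and 72.2 CPM in the 10WK libraries, against 35.0, 33.6 and 94.2 CPM in the 4WK libraries, and this replicate was above all 10WK libraries. The part of muscle in the results was not tested. The endothelium list had 2 members with a median of -0.17, and miR-126-3p had 3720.1, 3838 and 3764 CPM in the 10WK libraries, against 4532, 5668 and 5107 CPM in the 4WK libraries with an interval of -0.73 to 0.15. The red blood cell list had 3 tested members (median 0.42), the cartilage list 4 (median 0.02, and -0.13 by library totals) and the melanocyte list 2, miR-204 and miR-211 (median -0.39), and none of their members passed. As miR-204 and miR-211 have the same listed sequence, they may not be separate measurements.

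**Figure D4:**
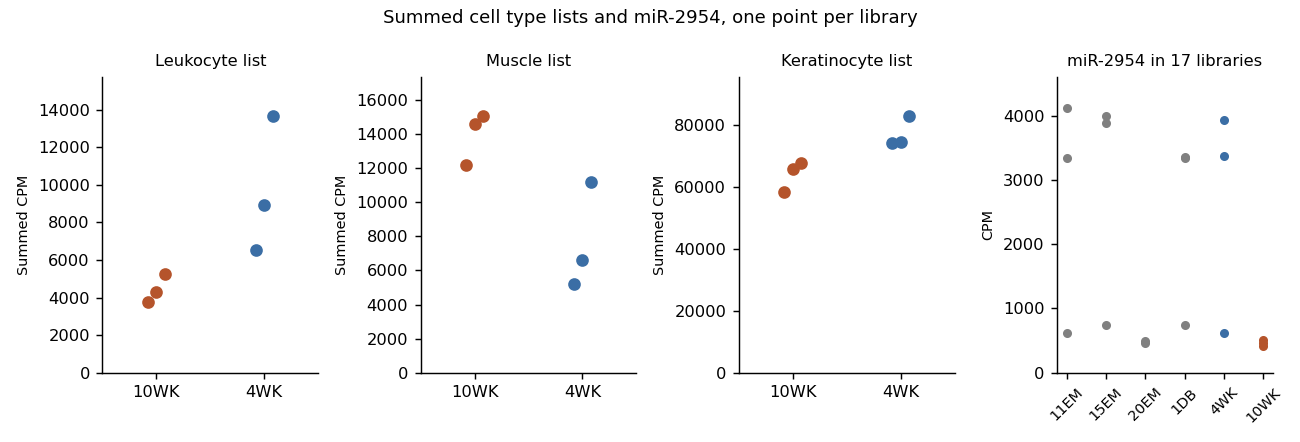
Summed CPM of the leukocyte, muscle and keratinocyte lists, with the 3 libraries of 10WK left of the 3 of 4WK, and the CPM of miR-2954 in the 17 libraries by stage (20EM has 2 libraries). On the scale of library totals, sums of the leukocyte list and of the 3 keratinocyte miRNAs are lower and muscle sums higher in all 10WK libraries. The 3 keratinocyte miRNAs are part of the epidermis and follicle list, whose sums overlapped between the stages. miR-2954 stands at 2 separate levels.

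Set among all stages, the DE miRNAs followed different courses. miR-9-3p had its highest mean at 11EM, 219 CPM, and then 105, 114, 68.3, 47.1 and 10.2 CPM at 15EM, 20EM, 1DB, 4WK and 10WK, so that the step to 10WK was the largest of its steps on a fold scale. miR-9-5p peaked at 15EM with 361 CPM and had 63.9 CPM at 4WK and 47.7 CPM at 10WK. miR-30e-5p had a higher mean at each stage than at the one before, 41.2, 55.9, 117, 179, 283 and 546 CPM from 11EM to 10WK, while miR-30e-3p stayed between 1473 and 2040.2 CPM.

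miR-142-3p and miR-21-5p had their peak at 4WK. miR-142-3p had a mean of 39.3 CPM at 1DB, 311 CPM at 4WK and 107 CPM at 10WK, and miR-21-5p 14556, 51876 and 26469.7 CPM at these stages. The level at 10WK was for both still above that at 1DB in every library. miR-29a-3p climbed over all stages, with 4.72 CPM at 11EM, 79.8 CPM at 1DB, 271 CPM at 4WK and 533 CPM at 10WK.

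**Figure D5:**
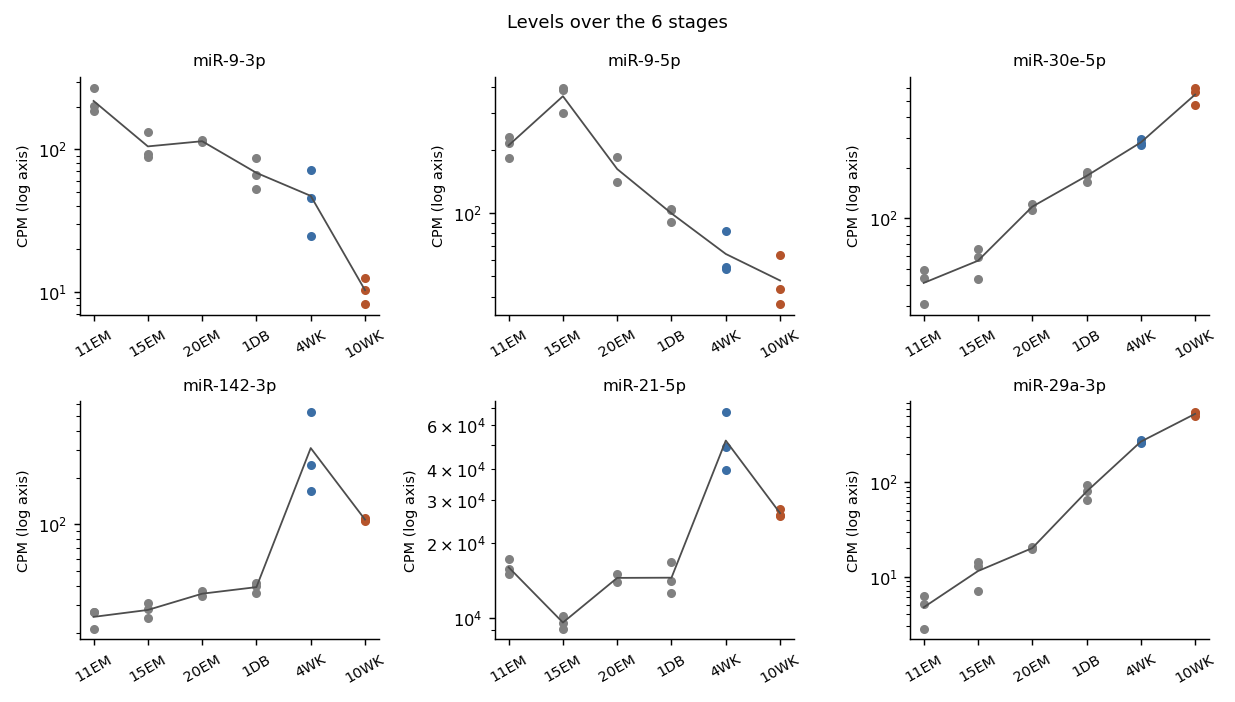
CPM (log axis) of miR-9-3p, miR-9-5p, miR-30e-5p, miR-142-3p, miR-21-5p and miR-29a-3p over the 6 stages, with a point per library (3 per stage, 2 at 20EM) and a line through the stage means. miR-30e-5p and miR-29a-3p climb at each stage, miR-142-3p and miR-21-5p peak at 4WK and miR-9-3p is lowest at 10WK.

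In the 4 stages where the libraries held both levels of miR-2954, its lowest library can be set beside the other miRNAs. At 11EM this was replicate 1, at 15EM replicate 2, at 1DB replicate 2 and at 4WK replicate 3. miR-9-3p had 186, 88.7, 52.6 and 24.5 CPM in these libraries, against 200.4 and 270.3 CPM in the others of 11EM, 133.5 and 92.5 CPM at 15EM, 86.2 and 66.2 CPM at 1DB and 45.5 and 71.3 CPM at 4WK. It was the lowest of its stage in all 4, as was miR-142-3p, while miR-142-5p was the lowest in 3 of 4, miR-21-5p in 1 of 4 and miR-30e-5p in 0 of 4. Of the 225 other miRNAs tested, 10 (4.44%) were the lowest there in all 4 stages, 22 (9.78%) in 3 and 56 (24.9%) in 0. These counts are a description without a test.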

How the data were processed

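The authors made TruSeq small RNA libraries from total RNA of duck skin, trimmed the reads with the FASTX-Toolkit, removed reads matching other noncoding RNA with up to 2 mismatches in CLC Genomics Workbench 5.5 and searched the remaining reads against chicken miRBase 21. The deposited values are counts of reads, not normalized, on the mature arms of chicken hairpins; reads are not molecules, so intervals cover counting error and library spread but not amplification. Counts of hairpin lines with the same mature name were added, and an unlisted miRNA was given 0. All 17 libraries used (3072942 to 15839714 counts; replicate 2 of 20EM not analysed here) were fitted together with 6 stage groups in edgeR 4.0.16 (R 4.3.3; TMM, quasi-likelihood test, Benjamini-Hochberg adjustment over 226 miRNAs), with the contrast 10WK minus 4WK. CPM in the text are relative to library totals, fold changes to TMM. Intervals are 95% intervals from the fold change, its SE and the t quantile. Tables and figures were made with python 3.11.15, numpy 2.4.6, pandas 2.3.3, scipy 1.17.1 and matplotlib 3.10.9; the test was checked on simulated counts. Alternatives were DESeq2 1.42.0, limma 3.58.1 (log2 CPM, with 0.01 in place of 0), library totals, other filters and thresholds, a replicate block, a covariate for libraries of high or low clean-read percent, the 6 libraries alone and leaving out each replicate; added after seeing the data were leaving out a replicate with all TMM factors kept, miR-2954 as a covariate and the highest hairpin line in place of the sum.

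The miRNAs named are the DE miRNAs and their other arms, the 10 next by p with at least 10 CPM, the 20 most abundant, miR-2131-3p and miR-196-1-3p, which the paper names for this step, and up to 4 of the most abundant members of each list. The comparison, lists and tests were chosen with earlier results of these data known. No genome positions are given.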

Additional observations from a re-analysis of the deposited data

How the results depend on the processing

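The number of DE miRNAs for 10WK over 4WK was 3 and became 11 with DESeq2, 6 with limma on log2 CPM, 5 with library totals, 6 with at least 10 CPM in at least 3 of the 6 libraries, 5 with the clean-read class as a covariate and 1 with the log2 CPM of miR-2954 as a covariate. It was 5 with the highest hairpin line in place of the sum, an alternative chosen after seeing the data, with which the share of the top 20 was 88.4% at 10WK and 87.2% at 4WK. With other thresholds it was 8 without a fold limit, 9 at an unadjusted p under 0.01, 12 at an unadjusted p under 0.05 (both with the fold limit) and 1 at an absolute log2 fold change over 2. It was 2 without a filter and 3 with the 6 libraries alone. Leaving out 1 replicate gave 2 to 17. At the high end the scaling moved as well: without replicate 1 or 2 of 10WK the median log2 fold change of all miRNAs was -0.31 in both fits, against 0.01 and 0.03 with the normalization factors of all libraries kept, where the number was 2 in both. Without 4WK replicate 3 it was 8, and 9 with these factors kept. The median was -0.14 by library totals, -0.15 with limma and -0.14 with the filter of 10 CPM; in these fits and without 10WK replicates 1 or 2 all DE miRNAs were lower at 10WK, against 2 of the 3 above. The number of miRNAs within 2-fold was 110 and stayed within 1.5 times of this, with 79 to 105 when 1 replicate was left out; above 1000 CPM it was 48, with 42 to 48. The share of the top 20 was 86.0% to 86.2% at 10WK and 84.6% to 85.1% at 4WK when 1 replicate was left out. With the replicate number as a block (replicate block) 3 miRNAs were DE, the same 3, and 107 were within 2-fold; miR-18a-5p and miR-18b-5p no longer passed (adjusted p = 0.057 and 0.0575, edgeR). The correlation of the deviations of same-numbered libraries from their stage means over 169 miRNAs was 0.07, -0.25 and 0.17. Not every library correlated best with its own number. With 3 libraries per stage the deviations depend on each other, so this cannot decide whether same-numbered libraries are paired.

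Over 1492 log2 fold changes of 68 named miRNAs under the alternatives, 1296 kept direction and side of the threshold, or moved by less than the replicate spread, 58 no longer passed, 55 newly passed, 83 moved further, and 0 that passed in either fit turned direction; 115 that passed in neither fit changed sign. Counting perfectly matched reads alone was planned but not run, as the counts do not separate them. Depth limits the 57 miRNAs under 10 CPM, of which 6 had an interval within 2-fold.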
